A study of Drosophila melanogaster and Drosophila simulans with 122 samples.

Results

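Single cysts of primary spermatocytes (pSC) from D. sim KO were compared with those from D. sim WT. The comparison holds 10 of the 122 libraries of the series and 10 of its 45 D. sim cysts, chosen by their labels: 5 KO cysts and 5 WT cysts. In D. sim KO, a short stretch of the X-linked gene for dsi-miR-983a, which corresponds to its 5p arm, carries a deletion and substitutions, while D. sim WT is the control strain with the gene intact. All cysts were taken from testes of mated males 2 to 3 days after eclosion, and cysts of 16 cells with cell diameters of 22 to 25 µm were picked one at a time as pSC. The RNA of each cyst was amplified before sequencing. Whole testes of the same lines, used below for comparison, were pooled from males 3 to 5 days after eclosion. Each genotype is a single fly line, so other genetic differences between the lines cannot be told apart from the loss of miR-983. How the cysts were spread over males is not given in the sources used here, so p-values measure the spread between these cysts. A cyst library holds all RNA of the cyst, and fewer cells of a type cannot be told apart from less RNA per cell.

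A miRNA is a short RNA that guides Argonaute proteins to complementary sites in mRNAs, which are then degraded or translated less. Its seed, near the 5′ end, contributes most to which mRNAs it binds. Primary spermatocytes grow through a long meiotic prophase and transcribe most of the genes that spermatids will need, because transcription is largely shut down from the meiotic divisions on. Spermatogonia (SG) come before them, and round spermatids (rST) and elongating spermatids (eST) come after.

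The species have different miR-983 sequences, and the qRT-PCR forward primers designed for this arm are shown because they carry that difference. Capitals mark the 8 bases at the 3′ end that both primers share, and the mature miRNAs themselves are not printed here. The mir-983 genes lie on the X chromosome of the D. melanogaster reference annotation.
dsi-miR-983-5p forward primer: ggcgagtaataccTTTCGAAC
dme-miR-983-5p forward primer: ggcgataatacgTTTCGAAC
The D. sim tables list genes by identifier alone, so mir-983 was not looked up in them and the genotype labels were not checked on it.

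Total gene counts were 17948290 to 20176736 in the KO cysts, against 12980169 to 17765680 in the WT cysts, so every KO library was deeper than every WT library. The difference was 3279825 counts on average (two-sided exact permutation test, p = 0.00794, the smallest p that 5 against 5 allows, 0.0397 adjusted over 5 measures). From 13003 to 13400 genes had a read in a KO cyst, against 13010 to 13364 in a WT cyst. The identifiers of the D. sim table are not paired with gene symbols in the files or the reference tables used here, so markers of cell types and pathways could not be looked up, and somatic cells in the cysts could not be assessed by markers.

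Each pSC cyst was placed instead between the SG mean (0) and the rST mean (1) of the D. sim cysts of both genotypes. This axis holds no pSC reference, so it can set the cysts apart from SG but cannot check the pSC label against rST. The 5 KO cysts lay at 0.969, 0.888, 0.993, 0.922 and 0.943, against 0.823, 0.962, 0.803, 0.992 and 0.615 for the 5 WT cysts. The KO cysts were close together, and WT replicates 2 and 4 lay within their range while WT replicates 1, 3 and 5 lay nearer to SG. The SG cysts reached at most 0.215 in KO and 0.271 in WT, and the lowest rST cyst lay at 0.937 in KO and at 0.960 in WT. On this axis 3 of the 5 KO cysts and 2 of the 5 WT cysts lay above the lowest rST cyst. The mean was 0.943 ± 0.0406 in KO and 0.839 ± 0.150 in WT (SD, n = 5 each), a difference within the spread of the WT cysts (exact permutation test, p = 0.159, 0.198 adjusted over 5 measures).

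The share of gene counts from 2319 genes that were over 8-fold higher at SG than at rST was 1.94%, 2.84%, 2.08%, 2.64% and 2.48% in the KO cysts, against 4.56%, 2.42%, 5.62%, 1.86% and 10.5% in the WT cysts. The highest share, in WT replicate 5, belonged to the cyst nearest to SG. Rank correlations between cysts of one genotype were 0.978 to 0.988 in KO and 0.901 to 0.983 in WT, and those between the genotypes were 0.875 to 0.947. The biological coefficient of variation estimated by edgeR was 22.4% over the KO cysts alone and 46.5% over the WT cysts alone. The WT cysts were thus the more variable group, in part along the axis of stage.

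**Figure D1:**
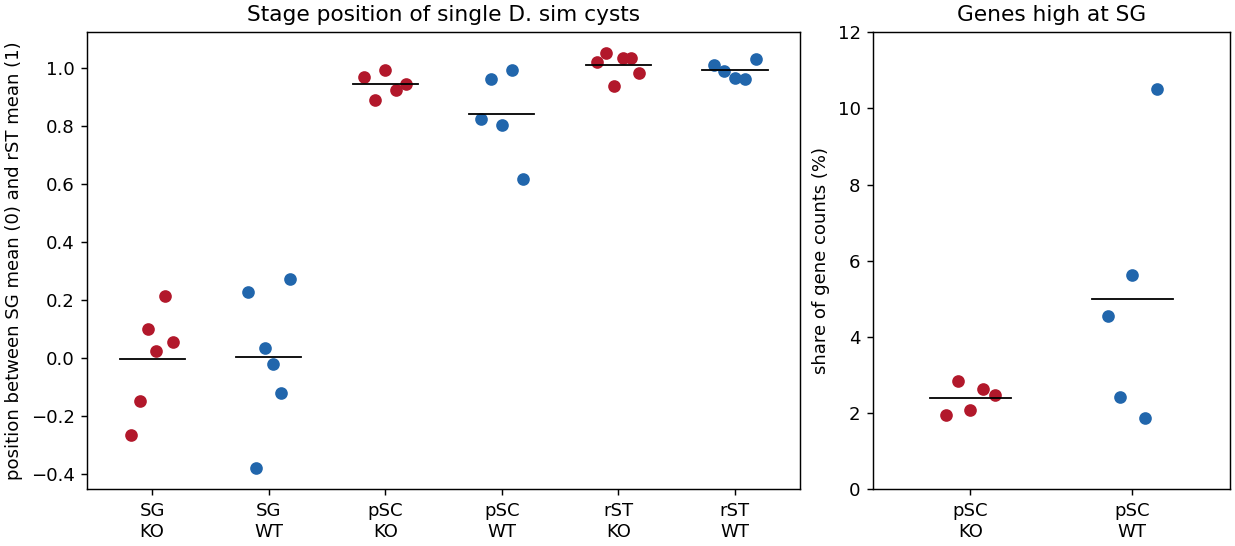
Left, the position of single D. sim cysts between the SG mean (0) and the rST mean (1), with SG, pSC and rST cysts of KO and WT. Right, the share of gene counts, in percent, from the 2319 genes high at SG in the 10 pSC cysts. Points are cysts and lines are means. The 5 KO pSC cysts lie between 0.888 and 0.993 on the left, and the WT pSC cysts spread from 0.615 to 0.992.

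Of 15266 genes in the count table, 12154 had a mean of more than 5 normalized counts in at least 1 genotype and were tested. A gene was called when its absolute log2 fold change, KO over WT, was above 1 and its false discovery rate (FDR) by edgeR's quasi-likelihood test was under 0.05. By this rule 1609 genes were called, 13.2% of those tested. Lower expression in KO was the more frequent direction, with 1076 genes lower (8.85%) and 533 genes higher (4.39%). The median log2 fold change over all genes tested was -0.09. The change exceeded 4-fold for 515 of the lower genes and 266 of the higher genes, and exceeded 16-fold for 134 and 73 of them.

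Between the genotypes, 1766 genes (14.5% of those tested) had normalized counts that did not overlap, and 1183 genes (9.73%) were called as well as not overlapping, 722 lower and 461 higher in KO. The number of calls depended on single cysts of both genotypes. Leaving out a single KO cyst gave 1148 to 1325 calls. Without WT replicate 4, the WT cyst nearest to rST, 2468 genes were called, 1824 lower and 644 higher in KO. Without WT replicate 5, 1385 were called, 873 lower and 512 higher. With the stage position as a covariate, 1335 genes were called, 777 lower and 558 higher. A total of 628 genes, 408 lower and 220 higher in KO, were called in the same direction in all of 16 alternatives, which covered DESeq2, its size factors, the fit of all 45 cysts, the replicate block, the stage covariate, thinning to equal depth and the omission of each of the 10 cysts.

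**Figure D2:**
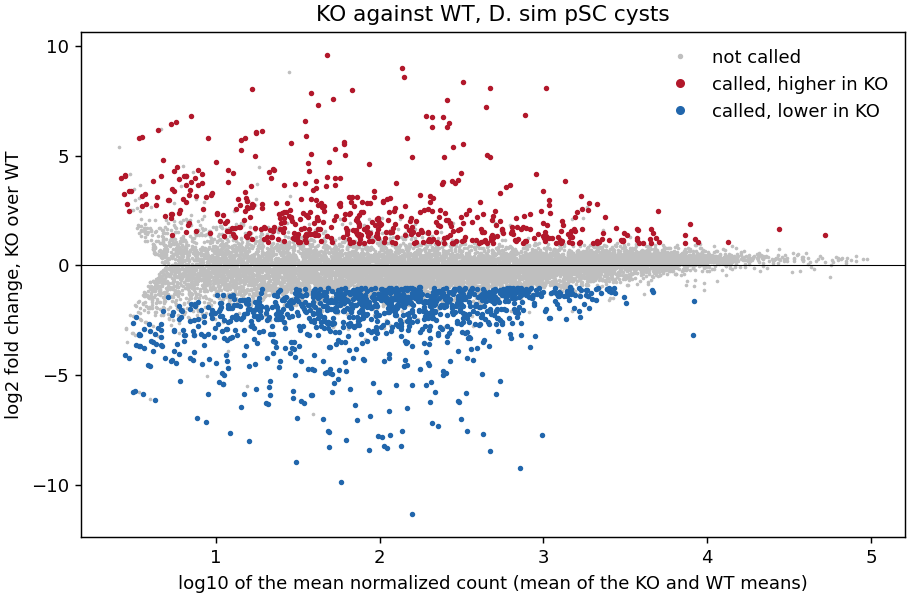
Log2 fold change, KO over WT, against the log10 mean normalized count for the 12154 genes tested in pSC cysts. Each point is a gene. Red genes are called higher in KO (533), blue genes called lower (1076) and grey genes not called, and calls in both directions occur from low to high levels.

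Calls were fewest among the most highly expressed genes. The level used is the larger of the mean FPKM of the KO and the WT cysts. Among the 1957 genes at 100 FPKM or more, 51 (2.61%) were lower and 54 (2.76%) higher in KO. Among the 3973 genes at 1 to 10 FPKM, 480 (12.1%) were lower and 231 (5.81%) higher. The excess of lower calls seen from 1 to 100 FPKM was therefore not seen in the top class.

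The direction of the calls varied with the ratio of a gene's level at rST to that at SG, taken from the separate SG and rST cysts of both genotypes. Levels at pSC and eST do not enter these classes. Of the 1076 genes lower in KO, 553 (51.4%) were over 2-fold higher at SG than at rST, against 44.5% of all genes tested. Of the 533 genes higher in KO, 114 (21.4%) belonged to this SG class. Genes over 2-fold higher at rST made up 25.1% of those higher in KO and 8.27% of those lower, against 18.8% of all genes tested. The median log2 fold change was -0.40 in the SG class, -0.01 in the class within 2-fold and 0.33 in the rST class. These shifts stand beside the earlier stage position of WT replicates 1, 3 and 5, and their cause was not tested. With the stage position as a covariate the medians were -0.03, -0.02 and 0.06. The classes and the stage position are both drawn from the SG and rST cysts, so the covariate brings the medians together by construction. Calls with the covariate numbered 277 lower and 187 higher in the SG class and 119 lower and 103 higher in the rST class. Without it, 89 were lower and 134 higher in the rST class.

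Several genes were present in the cysts of one genotype and nearly absent from the other. No read was counted over all 5 KO cysts for 11 called genes, and none over all 5 WT cysts for 8 called genes. Because counting ignored the strand, genes that overlap another gene are uncertain, which concerns 43.0% of the called genes and 42.2% of all genes tested. Normalized counts are given per cyst in the order of the replicate numbers.

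The gene with the largest decrease in KO was FBgn0186718 (3L:22091183-22091764, plus strand, no overlapping gene). It had 0, 0, 0, 0 and 0 normalized counts in the KO cysts, against 409.7, 329, 272, 364 and 197 in the WT cysts. The difference is at least 523-fold against a floor of 3 counts over the KO group (edgeR adjusted p = 5.3e-06). Such floors and the counting intervals below cover counting error only.

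FBgn0268818 (2R:8803735-8804832, plus strand), which overlaps FBgn0044194, was also without a read in the 5 KO cysts. The WT cysts had 108, 137, 113, 133 and 93.5 normalized counts, so it was at least 196-fold lower in KO (edgeR adjusted p = 7.2e-06). FBgn0268364 (2L:12335072-12335689, minus strand), which overlaps FBgn0195222, was without a read in KO as well, against 36.6, 92.2, 64.9, 95.3 and 19.6 normalized counts in WT, and was at least 99.5-fold lower. The WT counts of FBgn0268364 were lowest in replicate 5 and highest in replicate 4, the cysts nearest to and farthest from SG.

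A few reads remained in KO for FBgn0270372 (2L:5197108-5198272, plus strand), at 0.986, 4.63, 3.13, 2.97 and 0 normalized counts, against 1259, 1867, 1378, 2052 and 671 in WT. The log2 fold change of FBgn0270372 was -9.19 ± 0.52 (SE, edgeR adjusted p = 5e-07). FBgn0195312 (2L:13554070-13557667, plus strand), which overlaps FBgn0193434, had 3.94, 1.85, 1.04, 2.97 and 2.83 normalized counts in KO, against 841, 1189.7, 739.8, 1436 and 468 in WT. FBgn0195312 had a log2 fold change of -8.46 ± 0.43 (SE, edgeR adjusted p = 2.4e-07), and as for the genes above the groups were far apart. In whole testes FBgn0270372 and FBgn0268364 were not called, at -0.38 and 0.38 on the log2 scale, and FBgn0270372 had 32.3 FPKM in KO and 42.5 FPKM in WT on average.

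In the other direction, FBgn0186827 (3R:10821089-10821639, minus strand, no overlapping gene) had 43.4, 89.8, 113, 122 and 107 normalized counts in the KO cysts and no read in the 5 WT cysts. It was at least 154-fold higher in KO (edgeR adjusted p = 5.6e-05). FBgn0191641 (3R:6813997-6814730, plus strand), which overlaps FBgn0190741 and FBgn0191642, had 175, 261, 283, 292 and 356 normalized counts in KO, against 0, 0, 0, 2.27 and 0 in WT. With 2 reads in WT the ratio was 668, with a 95% exact counting interval of 185 to 5522. FBgn0270272 (2R:17997763-18004895, plus strand), which overlaps FBgn0196498, had 282, 169, 352, 316 and 288 normalized counts in KO, against 0, 0, 0, 2.27 and 0.786 in WT. The reads of both of these genes in WT came mainly from WT replicate 4.

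FBgn0269238 (3L:418011-420451, plus strand), which overlaps FBgn0196988, had 807, 613, 550.1, 620.3 and 631 normalized counts in KO, against 1.08, 0, 2.28, 3.4 and 2.36 in WT. FBgn0193426 (2L:13887778-13888736, minus strand, no overlapping gene) had 2352, 1916, 2285, 2047 and 1799 normalized counts in KO, against 7.53, 5.49, 1.14, 19.3 and 4.71 in WT. Their log2 fold changes were 8.36 ± 0.39 and 8.09 ± 0.44 (SE, edgeR adjusted p = 1.7e-07 and 4e-07). FBgn0193426 reached 86.7 FPKM on average in KO cysts and 0.521 FPKM in WT cysts, the highest KO level per length among these 5 genes.

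**Figure D3:**
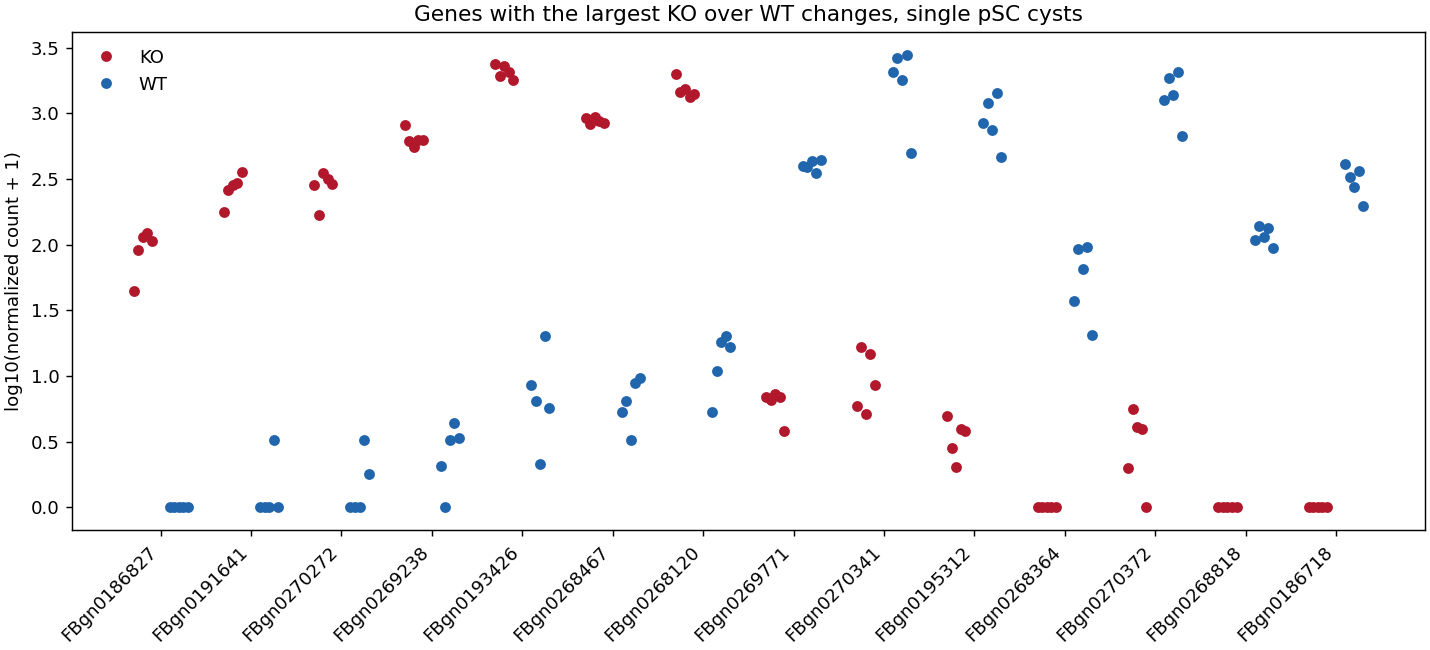
Log10(normalized count + 1) of single pSC cysts, KO left and WT right for each gene, for the genes with the largest changes and for the most changed of those called in every D. sim comparison, ordered by log2 fold change. Each point is a cyst. For every gene shown all 5 KO cysts lie on one side of all 5 WT cysts.

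Among abundant genes the changes were smaller. FBgn0268498 (2R:18192372-18193398, plus strand) had the highest mean count of the called genes, with 83610.2, 76803, 82734, 67951 and 69226 normalized counts in KO, against 26363, 38806, 23798, 42172 and 14798 in WT. FBgn0268498 had a log2 fold change of 1.38 ± 0.26 (SE, edgeR adjusted p = 0.0033), and the highest WT values were in replicates 2 and 4. In the fit of all 45 cysts its call was lost (adjusted p = 0.089). FBgn0191628 (3R:6580468-6581011, plus strand) had 43941, 44327, 41735, 36409 and 40607 normalized counts in KO, against 6263, 28747, 16901, 10658 and 3241 in WT. Its call (log2 fold change 1.65 ± 0.46, adjusted p = 0.03) was lost on leaving out WT replicate 1 or 3 or any of the 5 KO cysts, with adjusted p of 0.051 to 0.068.

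FBgn0185957 (3L) and FBgn0183475 (2R) followed, with log2 fold changes of 1.08 ± 0.25 and 1.06 ± 0.22 (SE). Both passed below the fold limit, at 0.78 each, with the stage position as a covariate, and at 0.93 each without WT replicate 5. Their calls were also lost in the fit of all 45 cysts, with adjusted p of 0.35 for FBgn0185957 and 0.27 for FBgn0183475. FBgn0183475 also passed below the fold limit without KO replicate 1 (0.99) and, at 0.999, without WT replicate 3. For these 4 genes the KO cysts were all above the WT cysts, and the WT cysts had the larger SD. Differences in mean FPKM were smaller, at 3308 in KO and 2022 in WT for FBgn0268498 and 5029 and 2559 for FBgn0191628. Mean FPKM was 268 in KO and 145 in WT for FBgn0185957, and 370 and 244 for FBgn0183475. In testes FBgn0191628 was called higher, at 1.40. FBgn0268498, FBgn0185957 and FBgn0183475 were not called there, at 0.008, -0.14 and -0.005.

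The most abundant genes lower in KO were FBgn0268114, FBgn0194197, FBgn0191129 and FBgn0195045. FBgn0191129 (3R:953578-955254, minus strand) had 1209.7, 1462, 1494, 1717 and 1565 normalized counts in KO, against 4908, 4462, 4521, 5323 and 5311 in WT, a log2 fold change of -1.72 ± 0.13 (SE, edgeR adjusted p = 3e-06). FBgn0195045 (2L:9928427-9929363, plus strand) had 1282, 1771, 1779.5, 1957 and 1598 normalized counts in KO, against 4192, 5774, 4118, 5486 and 3149 in WT. The decrease of FBgn0195045 was smaller at pSC (-1.44 ± 0.18) than at rST (-3.66), a difference of 2.26 ± 0.29 (SE, edgeR adjusted p = 0.00034). FBgn0268114 and FBgn0194197, both on 2L, had log2 fold changes of -1.21 ± 0.25 and -1.13 ± 0.19 (SE). FBgn0268114 was at -0.93 without WT replicate 4, and FBgn0194197 at -0.999 without WT replicate 2, where it was no longer called. In the fit of all 45 cysts neither was called, with adjusted p of 0.21 for FBgn0268114 and 0.29 for FBgn0194197. All 4 of these genes were without overlap between the KO and the WT cysts.

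Whether the pSC differences recurred in other D. sim libraries of the same lines was examined next. SG, rST and eST cysts and whole testes share no library with the pSC cysts, although they come from the same 2 lines. At rST, 12.8% of genes tested were called, 5.12% higher and 7.67% lower in KO. Of the 518 genes higher in KO at pSC and tested at rST, 506 had the same sign there and 340 (65.6%) were called higher. Of the 1035 genes lower at pSC, 981 had the same sign and 581 (56.1%) were called lower. None was called in the opposite direction. In all, 921 genes were shared, which is 59.3% of the pSC calls tested at rST and 60.2% of the rST calls. Of the 628 genes called in all alternatives, 618 were tested at rST. There 543 (86.5% of the 628) were called in the same direction. The alternatives that chose these genes include the fit of all D. sim cysts and the stage covariate, and both draw on the rST cysts. The recurrence of these genes at rST is therefore not independent of how they were chosen.

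Fewer of the pSC calls recurred in the remaining comparisons. At eST, where 4.63% of genes were called (1.97% higher and 2.66% lower in KO), 142 of 483 higher genes (29.4%) and 228 of 971 lower genes (23.5%) were called in the same direction. At SG, where 0.777% were called (0.437% higher and 0.34% lower), it was 21 of 489 (4.29%) and 35 of 1009 (3.47%). The biological coefficient of variation was 75.2% at SG, 72.9% at eST, 29.3% at rST and 8.48% in whole testes, beside 37.5% at pSC. Of the genes higher at pSC, 83.2% had the same sign at SG and 88.2% at eST, and of those lower it was 77.9% and 79.3%. Over all genes tested in both stages, the share with the same sign was 55.0% for SG, 55.8% for eST and 67.9% for rST.

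In whole testes, 10.2% of genes were called, 4.43% higher and 5.81% lower in KO. Of 481 genes higher at pSC, 163 (33.9%) were called higher in KO testes and 21 were called lower. Of 1039 genes lower at pSC, 227 (21.8%) were called lower and 21 were called higher. The same sign was found for 73.2% and 60.9% of them, beside 46.7% of all genes tested in both. A total of 584 genes (36.3% of the pSC calls) were called at no other stage and not in testes.

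**Figure D4:**
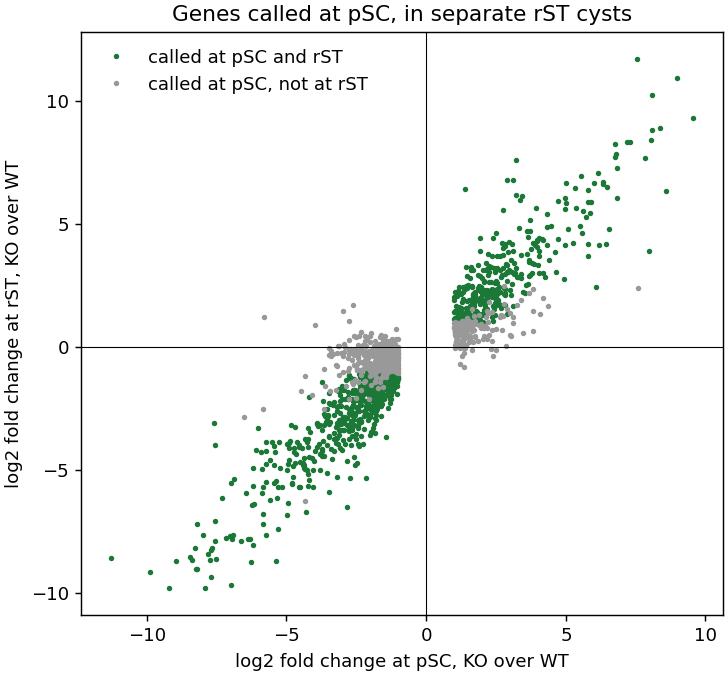
Log2 fold change, KO over WT, at rST against that at pSC for the genes called at pSC and tested at rST. Each point is a gene, green where it was called at both stages (921 genes) and grey where it was called at pSC alone. Most points have the same sign on both axes, with 506 of 518 higher genes and 981 of 1035 lower genes on the same side at rST.

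Called in the same direction at pSC, SG, rST, eST and in testes were 26 genes, 13 higher and 13 lower in KO. FBgn0193426 had log2 fold changes of 7.88 at SG, 8.81 at rST, 8.64 at eST and 8.42 in testes, beside 8.09 at pSC. FBgn0269238 had 7.49, 8.88, 9.10 and 7.19 in these 4 comparisons. These 2 genes were thus expressed in KO libraries at every stage and nearly absent from WT libraries.

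FBgn0268467 (3L:763250-764217, plus strand), which overlaps FBgn0185221, had 921, 835, 930.4, 875 and 850.1 normalized counts in KO pSC cysts, against 4.3, 5.49, 2.28, 7.94 and 8.64 in WT. FBgn0268120 (3L:513246-515171, minus strand), which overlaps FBgn0182780, had 1993, 1443, 1528, 1323 and 1410.0 normalized counts in KO, against 4.3, 9.88, 17.1, 19.3 and 15.7 in WT. With FBgn0269238, these genes lie within the first 1000000 bases of 3L.

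Among those lower in every comparison, FBgn0186718 had fitted log2 fold changes of -8.22 at SG, -8.60 at rST, -9.67 at eST and -9.09 in testes. FBgn0270341 (2R:14219441-14220138, plus strand), which overlaps FBgn0183052, had 4.93, 15.7, 4.17, 13.8 and 7.54 normalized counts in KO pSC cysts, against 2054, 2658, 1793, 2784 and 494 in WT. FBgn0269771 (3L:18193298-18194088, plus strand) had 5.92, 5.56, 6.25, 5.94 and 2.83 normalized counts in KO, against 396, 389, 429, 348 and 439.9 in WT. Its log2 fold change of -6.21 ± 0.25 (SE) at pSC stood beside -5.86, -5.65, -5.22 and -5.49 at SG, rST, eST and in testes, and it was the most even of these genes across the WT pSC cysts.

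Differences of the KO over WT fold change between pSC and another stage were tested directly as an interaction in edgeR's quasi-likelihood test, at an FDR under 0.05. Such a difference was found for 239 genes (1.83% of 13049) against SG, 55 (0.444% of 12392) against rST and 33 (0.265% of 12431) against eST. Of the 1609 pSC calls, 1551 were not called at SG, and for 187 of them the difference from SG passed the test. Of 688 pSC calls not called at rST the difference passed for 7, and of 1238 not called at eST for 8. For most genes called at pSC alone, therefore, a difference from the other stage was not shown. The number of genes that differed from rST was 1254 without WT pSC replicate 4 and 24 without WT pSC replicate 3.

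The largest difference from SG was in FBgn0269114 (2R:21461716-21462162, minus strand, no overlapping gene), whose change reversed between the stages. At pSC it had 0, 2.78, 3.13, 1.98 and 2.83 normalized counts in KO, against 191, 259, 255, 269 and 156 in WT. At SG the 6 KO cysts had from 5584 to 14209 normalized counts, with a median of 6419, against 77.6 to 312, with a median of 189, in the 6 WT cysts. Its log2 fold change was -6.64 ± 0.45 at pSC and 5.27 ± 0.40 at SG, a difference of -11.77 ± 0.64 (SE, edgeR adjusted p = 1.6e-10). At rST, eST and in testes it was lower in KO, with log2 fold changes of -7.89, -7.24 and -8.70. KO cysts thus held more of it than WT cysts at SG and less from pSC on, at most 4.07 normalized counts per KO cyst at rST and eST. Whole KO testes held at most 0.983 normalized counts, against 155 to 232 in WT testes. The high level of the KO SG cysts was therefore not seen in whole testes of the same line, and the reason was not tested.

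From eST, the largest differences among pSC calls were in FBgn0188756 and FBgn0192232. FBgn0188756 (X:14126874-14128663, plus strand) had 0, 1.85, 0, 0 and 0 normalized counts in KO pSC cysts, against 124, 101, 113, 71.4 and 71.5 in WT, and at eST the groups overlapped. With 2 reads in KO at pSC, WT exceeded KO by a ratio of 242, with a 95% exact counting interval of 66.6 to 2003. FBgn0192232 (3R:15475281-15477289, plus strand) had 57.2, 39.8, 53.1, 61.3 and 38.6 normalized counts in KO, against 323, 499, 282, 195 and 152 in WT. FBgn0192232 changed by -2.53 ± 0.33 on the log2 scale at pSC, -4.80 at rST and -8.18 at eST, so its decrease was smaller at pSC than at these stages. The adjusted p was 0.0024 for the difference from rST and 0.012 for that from eST. Its WT cysts at eST ran from 264 to 14117 normalized counts, with a median of 591, so the eST change leans on the highest cyst. In testes FBgn0192232 changed by -0.58 and was not called.

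From rST, the largest differences were in 2 genes of low counts. FBgn0190215 (3R) had a log2 fold change of -3.98 ± 0.94 at pSC (SE, edgeR adjusted p = 0.014) with overlapping cysts, from 0 to 4.93 normalized counts in KO and from 4.54 to 99.0 in WT. FBgn0270147, on an unplaced scaffold, had 18.7, 36.1, 41.7, 48.5 and 56.5 normalized counts in KO pSC cysts, against 9.68, 14.3, 9.11, 10.2 and 17.3 in WT, and was under the count minimum in the other comparisons. It was thus measured above the minimum at pSC alone, and was not called in the fit of all 45 cysts (adjusted p = 0.23).

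Called genes were found on every chromosome arm. The share called was 15.2% on 2R, 14.8% on 3L, 13.2% on 3R, 13.1% on 2L and 9.10% on X, which carries miR-983. On the fourth chromosome 9 of 80 genes were called, 8 lower and 1 higher in KO. Higher genes made up 2.87% of genes on X and 2.99% on 3R, beside 5.87% on 2R and 5.49% on 2L. Lower genes made up 10.3% of genes on 3R and 6.23% on X, and with the stage covariate 7.67% and 2.76%.

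**Figure D5:**
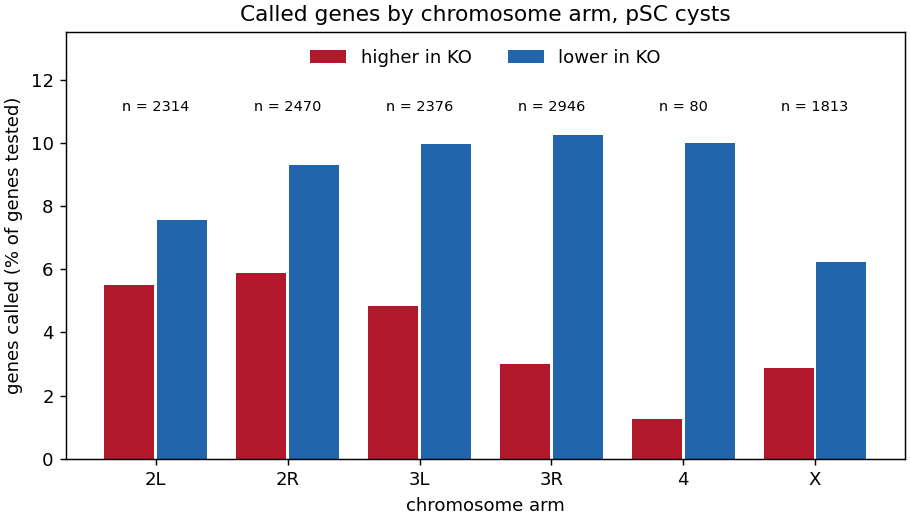
Percent of genes tested on each chromosome arm that were called higher (red) and lower (blue) in KO in pSC cysts, with the number of genes tested above the bars. On 3R the lower genes reach 10.3% and the higher genes 2.99%, and X has the smallest share of lower genes, 6.23%.

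Along the arms, the share called ranged from 0.833% to 33.3% over 114 windows of 1000000 bases with at least 20 genes tested, with a median of 12.7%. The highest share was at 3R:7000001-8000000, with 23 genes lower and 14 higher of 111. At 3L:11000001-12000000, 33 of 127 genes were lower and 4 higher, while in the adjoining window at 3L:10000001-11000000 8 of 87 were lower and 15 higher. The lowest share was at 2R:6000001-7000000, where 1 of 120 genes was called. The gene after a gene called lower was itself called lower in 148 of 1064 cases (13.9%), beside 8.85% of all genes, and the gene after a gene called higher was called higher in 59 of 528 (11.2%), beside 4.39%.

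Runs of 3 or more neighbouring tested genes called in the same direction numbered 31. The longest, at 3R:23176131-23191811, held 5 genes lower in KO, with log2 fold changes of -2.32 to -1.50, and 2 of them overlap other genes. A run of 4 genes at 3R:7839731-7854983, all on the minus strand and without overlaps, held FBgn0190676, FBgn0270607, FBgn0190675 and FBgn0190674. FBgn0270607 averaged 0.185 ± 0.414 normalized counts in KO and 97.6 ± 54.6 in WT (SD, n = 5 each), and its neighbour FBgn0190676 averaged 87.3 ± 16.6 and 284 ± 125. Their log2 fold changes were -8.25 ± 0.71 and -1.70 ± 0.32 (SE). At rST they were -9.06 and -1.01, both called, whereas in testes FBgn0270607 was called in the opposite direction at 1.07. FBgn0190676 was at -0.42 in testes and not called there. FBgn0190675 was not tested at rST or in testes.

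Gene symbols could be given to 17 D. sim genes, all listed by the study as candidates for selection associated with miR-983 at one of the 4 stages. They were matched through the D. sim mean FPKM values that the supplement prints beside the symbols, and all 17 lie on the arm of their D. melanogaster namesake. The study chose these genes on libraries that include these cysts, so their directions are no independent evidence. At pSC, 15 were tested, of which 7 were called higher, 1 was called lower and 7 were not called, beside 4.39% higher and 8.85% lower of all genes tested.

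Of the 5 genes listed for pSC, CG43895 changed most. CG43895 (FBgn0268258, 3L:21219733-21220521, minus strand), which overlaps FBgn0186673, had 11.8, 14.8, 22.9, 19.8 and 19.8 normalized counts in KO, against 0, 0, 0, 0 and 0.786 in WT. With 1 read in WT the ratio was 86.5, with a 95% exact counting interval of 15.1 to 3455, and it was also called higher at rST, eST and in testes. CG5687 (FBgn0185137, 3L) had 4.93, 2.78, 5.21, 2.97 and 9.42 normalized counts in KO, against 2.15, 0, 0, 0 and 0 in WT, and its adjusted p was 0.025. The counts of CG5687 are close to the minimum for testing, and its call was lost without WT replicate 3 (adjusted p = 0.06), with the stage covariate (0.08) and in the fit of all 45 cysts (0.17).

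TpnC47D (FBgn0067505, 2R:7881572-7882907), a troponin C gene of muscle, had 10.8, 46.3, 8.34, 137 and 37.7 normalized counts in KO, against 8.6, 3.29, 0, 18.1 and 3.14 in WT. The groups overlapped, and the adjusted p of 0.0499 rose above 0.05 on leaving out any of WT replicates 1, 2, 3 and 5 or KO replicates 1, 2, 4 and 5. The highest of those values, 0.14, was found without KO replicate 4, which held the most reads, and the log2 fold change was then 1.99 instead of 2.85. No other muscle gene could be looked up, and the part of muscle RNA in this result was not tested.

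The remaining genes listed for pSC were not called. stet (FBgn0268171, 3L), a rhomboid protease gene that acts in EGF signalling from germ cells to the surrounding somatic cells, had 391, 649, 615, 695 and 662 normalized counts in KO, against 1149.6, 890.1, 1315, 606 and 1008 in WT. Its log2 fold change of -0.72 ± 0.22 (SE, edgeR adjusted p = 0.044) was under the fold limit, and the cysts overlapped through WT replicate 4. Shawl (FBgn0193766, 2L), a voltage-gated potassium channel gene, had 20.7, 42.6, 34.4, 38.6 and 42.4 normalized counts in KO, against 1.08, 8.78, 28.5, 7.94 and 9.43 in WT. Its log2 fold change of 1.68 ± 0.56 missed the threshold (adjusted p = 0.057) at pSC, and it was called higher in KO at rST and in testes, at 2.42 and 3.29. Without WT replicate 3, the WT cyst with the most Shawl, it was called at pSC (2.36, adjusted p = 0.011).

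The other 12 genes, which the study lists for other stages, were added after their values were seen. CG4267 (FBgn0194530, 2L:2135984-2138050) had 2747, 2597, 2801, 2117 and 2427 normalized counts in KO, against 802, 18.7, 23.9, 26.1 and 26.7 in WT. WT replicate 1 stood far above the other WT cysts, and its log2 fold change was 3.82 ± 1.03 (SE, edgeR adjusted p = 0.026). The call was lost without WT replicate 3, KO replicate 1 or KO replicate 3, with adjusted p of 0.053 to 0.056, while without WT replicate 1 the adjusted p was 3.2e-08. WT cysts also varied widely at the other stages, from 3.11 to 806 normalized counts at SG, 42.8 to 1694 at rST and 17.6 to 4355 at eST. CG4267 was not called at SG, rST or eST. In testes its direction was the opposite, at 21.9, 28.5 and 32.8 normalized counts in KO, against 149.7, 266 and 233 in WT (log2 fold change -2.99, adjusted p = 4.2e-07).

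Also called higher in KO were CG43850 (2.76 ± 0.48), alpha-Est5 (2.44 ± 0.59), a carboxylesterase gene, and CG43296 (2.34 ± 0.38), as log2 fold changes with SE. In the fit of all 45 cysts CG43850 and alpha-Est5 were not called (adjusted p = 0.068 and 0.099). CG1812 (FBgn0269962, X:19104336-19108369) was lower, with 44.4, 52.8, 52.1, 52.4 and 53.7 normalized counts in KO, against 134, 81.2, 219.7, 63.5 and 408 in WT. Its WT counts followed the reverse order of the stage positions, lowest in replicate 4 and highest in replicate 5, and with the stage covariate its log2 fold change was -0.81 instead of -1.83. The adjusted p of CG1812 was 0.018, and 0.051 without KO replicate 1. Not called were CG2736 (1.22 ± 0.44, adjusted p = 0.076, and 0.038 without WT replicate 1), CG9701 (1.04 ± 0.62), glob1 (0.69 ± 0.54), a globin gene, CG31974 (0.20 ± 0.19) and Ccdc85 (-0.06 ± 0.27). lectin-46Cb and Sfp33A3, which belong to the seminal fluid genes made in the accessory gland, had 2 and 1 reads over the KO cysts and 1 and 0 over the WT cysts and were not tested.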

How the data were processed

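The authors trimmed reads with Trimmomatic 0.36, mapped them with HISAT2 2.2.0 to the D. simulans genome, and deposited counts per gene from HTSeq 0.6.0, without regard to strand and not normalized, and FPKM values per gene from StringTie 2.1.4 (versions per the labels). FPKM rows of 1 identifier were summed. The quasi-likelihood test of edgeR 4.0.16 (R 4.3.3), with TMM factors, was run two-sided on the counts of the 10 pSC cysts, 12980169 to 20176736 per cyst, with Benjamini-Hochberg adjustment over all genes with a mean above 5 normalized counts in a genotype. Other stages and testes were fitted separately. Alternatives were DESeq2 1.42.0, its size factors, no filter, a minimum of 50, no fold limit, all 45 cysts in 1 fit, the replicate number as a block, the stage position as a covariate and each cyst left out; thinning to the lowest total count was chosen after the data were seen. The tests were tested on simulated data. The stage position projects log2 CPM on the line from the SG to the rST mean.

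Named genes are the 5 higher and 5 lower with the largest change among calls without overlap and at least 50 normalized counts, the 4 and 4 most abundant of these calls, the 4 and 4 most changed among genes called in every D. sim comparison, the 2 that differ most from each other stage, and the genes the study names for pSC. Members and lists were chosen with earlier results of these data known. Gene lists by D. melanogaster symbol (234 symbols) could not be applied, since 3 could be matched. Symbols of 17 genes came from matching both mean FPKM values within a relative tolerance of 1e-05. Coordinates are those of the deposited FPKM files (D. simulans r2.02). Targets of miR-983 were not analysed here.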

Additional observations from a re-analysis of the deposited data

Results flagged for a closer look

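In 86 tests of groups of 5 cysts, 6 cysts stood far from the others of their group, and chance flags about 1 in 20 groups. These were KO replicate 5 for FBgn0269771 (2.83 normalized counts), KO replicate 4 for FBgn0193433 (27.7), KO replicate 1 for stet (FBgn0268171, 391) and for CG1812 (FBgn0269962, 44.4), WT replicate 5 for CG9701 (FBgn0186338, 42.4) and WT replicate 1 for CG4267 (FBgn0194530, 802). Without WT replicate 5, the cyst nearest to SG, CG9701 was called higher in KO, with a log2 fold change of 2.04 (edgeR adjusted p = 0.013).

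The KO over WT change differed between pSC and another stage by edgeR's interaction test for 7 named genes. The log2 fold change at pSC minus that at SG was -11.77 for FBgn0269114 (adjusted p = 1.6e-10) and 9.86 for FBgn0193433 (adjusted p = 0.042). The WT pSC cysts held no read of FBgn0193433, so that its fitted value depends on the prior count. In the separate SG comparison FBgn0193433 was under the count minimum, with a mean FPKM of 0 in KO and 0.0354 in WT. FBgn0193433 (2L:13567801-13570116), which overlaps FBgn0195313, had 7.89, 5.56, 7.29, 27.7 and 4.71 normalized counts in KO pSC cysts and was at least 17.1-fold higher there than in WT. The difference from SG was -7.05 for FBgn0188756. The difference from rST was -4.85 for FBgn0190215, 4.72 for FBgn0270147, 2.26 for FBgn0195045 and 2.30 for FBgn0192232, and that from eST was -6.20 for FBgn0188756 and 5.53 for FBgn0192232.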

How the results depend on the processing

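The 1609 calls at pSC, of which 1076 were lower in KO, moved by more than 1.5 times under 4 alternatives. Without single cysts the calls ranged from 1148 to 2468 and those lower from 714 (without KO replicate 1) to 1824 (without WT replicate 4). The fit of all 45 cysts lowered the 533 higher calls to 267, with 973 of its 1238 calls shared with the 1609. The replicate block left 1059 calls, 623 of them lower. No pairing by number was seen, since same-numbered cysts, centred within genotype, correlated at -0.12 to 0.02 and no KO cyst correlated best with its own number. The sources used here do not say whether the numbers mark a shared day or batch, and these correlations cannot exclude it. Lower calls made up 66.9% of calls with TMM, 64.5% with size factors, 72.3% without WT replicate 2, 73.9% without WT replicate 4, 78.4% in the fit of all cysts, 58.8% with the block and 58.2% with the stage covariate. A minimum of 50 left 1191 calls, no fold limit 2041, DESeq2 2037 and thinning 1559. The block changed the differences from SG, rST and eST from 239, 55 and 33 genes to 89, 4 and 15. Leaving out single cysts gave 167 to 340, 24 to 1254 and 26 to 52. DESeq2 called 328 genes instead of 96 at SG and 914 instead of 538 at eST. The cause of these shifts was not tested.

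Of 36 called genes named here, 22 kept their call under all of the 18 alternatives that gave a value, while the fit of all 45 cysts ended 10 calls, the stage covariate 5 and the block 4 (CG5687, alpha-Est5, CG1812 and FBgn0190215, with adjusted p of 0.069 to 0.095). Ccdc85 (FBgn0183749), which was not called, changed sign without WT replicate 2 and without WT replicate 3, over a range of -0.22 to 0.067 without single cysts. KO libraries were deeper than WT libraries throughout, and after thinning to equal depth 1476 of the 1609 calls remained.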
